A study of Mus musculus with 40 samples.

Results

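CpG-rich stretches of 1 kb whose mean methylation in liver lies near the middle of the scale are described here. Reduced representation bisulfite sequencing reads the methylation of cytosines in CpGs close to MspI cuts, and the deposited table lists 400298 such cytosines, each as a row with methylated and total reads in at least 33 of the 40 mice. Rows were grouped into bins of 1000 bases, and the 10235 bins with at least 10 rows were taken as dense. A dense bin was chosen by its measured level alone, when the mean over its rows of the row's mean percent over mice lay from 35% to 65%. A stretch of chromosome 17 was left out by rule, and none of its bins would have reached that range. This gave 190 regions holding 2736 rows, of 82753 bins in the whole table. They were split by how their own rows spread. A region was called uniform when at least 80% of its rows had means of 30% to 70%, which held for 75 regions. It was called mixed when at least 50% of its rows lay under 20% or over 80%, with at least 2 rows on each side, which held for 10. The other 105 were called graded. Levels and classes are thus descriptions of the selection, with no test.

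Liver DNA was taken from 40 C57BL/6 males (C57BL/6J in the study's methods) at 9 weeks of age, 10 in each of 4 groups. A group's name gives first the diet of the dam, from before pregnancy until weaning, and then the diet after weaning, so that LF_HF mice had low fat (LF) dams and were themselves fed a high fat (HF) diet after weaning, and LF_LF, HF_LF and HF_HF follow the same code. All groups were of this 1 strain, with no allele or transgene named. Reads at listed CpGs numbered 2969907 to 23345592 per mouse, and a row was given a value in a mouse only with at least 10 reads. At weaning, males of a cage were divided between the diets, so that mice can share a dam. The labels used here name no dam or cage, and the tests treat mice as independent. In whole liver DNA, a shift in the share of a cell type and a shift in methylation within cells cannot be told apart.

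Most CpG-dense sequence in mammals, such as the CpG islands at promoters, is kept free of methylation, while the CpGs of gene bodies and repeats are mostly methylated. Intermediate levels can arise in several ways. At the differentially methylated regions of imprinted genes, the copy from one parent is methylated and the copy from the other is not, in most cells of the body. Elsewhere a region may be methylated in some cell types and not in others, or a single bin may straddle the border of an unmethylated island. Binding of ZFP57, a zinc finger protein that protects imprinted methylation in the early embryo, requires the letters TGCCGC with a methylated CpG.

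To show what such CpGs look like in sequence, stretches of the plus strand of build mm9 are printed for regions that the results turn on, with CpGs measured in these mice in capitals and all other bases in lower case. The first set comes from 5 regions at imprinted loci. Each window of 150 bases was the one with most measured rows that touches no annotated untranslated exon. Plagl1 is at chr10:12810841-12810990, Mcts2 at chr2:152512572-152512721, Gnas at chr2:174124782-174124931, Trappc9 at chr15:72640107-72640256 and Airn at chr17:12962561-12962710.
Plagl1: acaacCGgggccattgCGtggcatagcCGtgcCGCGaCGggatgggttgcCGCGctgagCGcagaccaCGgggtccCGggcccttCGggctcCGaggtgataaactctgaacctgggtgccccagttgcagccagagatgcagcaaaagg
Mcts2: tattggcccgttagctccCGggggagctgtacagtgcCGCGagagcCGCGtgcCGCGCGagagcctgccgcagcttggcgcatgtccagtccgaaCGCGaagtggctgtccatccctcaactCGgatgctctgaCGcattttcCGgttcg
Gnas: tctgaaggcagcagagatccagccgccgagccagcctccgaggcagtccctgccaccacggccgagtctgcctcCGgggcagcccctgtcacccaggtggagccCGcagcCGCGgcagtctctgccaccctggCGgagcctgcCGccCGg
Trappc9: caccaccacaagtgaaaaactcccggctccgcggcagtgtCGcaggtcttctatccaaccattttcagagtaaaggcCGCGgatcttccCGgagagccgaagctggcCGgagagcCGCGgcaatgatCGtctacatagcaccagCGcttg
Airn: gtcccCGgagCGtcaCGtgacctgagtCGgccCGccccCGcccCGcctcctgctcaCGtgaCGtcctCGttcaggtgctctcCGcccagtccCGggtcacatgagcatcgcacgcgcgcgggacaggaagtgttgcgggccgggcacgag
In the Plagl1 window 18 rows at 13 CpGs had means of 43.7% to 50.5%, and in the Trappc9 window 9 rows had means of 40.4% to 47.4%. The letters TGCCGC, counted on both strands, occurred 3 times in the Mcts2 window, 2 times in each of the Plagl1, Gnas and Trappc9 windows and not in the Airn window.

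The second set shows regions outside the list of imprinted loci. Fut11 at chr14:21514694-21514843 and Mid1 at chrX:166435433-166435582 hold the most rows of the uniform class outside that list.
Fut11: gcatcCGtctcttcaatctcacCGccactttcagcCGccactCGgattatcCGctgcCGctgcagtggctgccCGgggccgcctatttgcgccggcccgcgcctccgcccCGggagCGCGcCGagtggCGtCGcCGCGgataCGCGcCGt
Mid1: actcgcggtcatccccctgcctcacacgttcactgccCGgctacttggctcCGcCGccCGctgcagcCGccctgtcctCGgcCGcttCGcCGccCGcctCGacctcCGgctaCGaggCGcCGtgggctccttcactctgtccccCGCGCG
The third set shows mixed regions, where a low and a high stretch lie in the same 1 kb. The Esrrg stretches are at chr1:189475921-189475964 and chr1:189475039-189475084, and the Sytl1 stretches at chr4:132812873-132812928 and chr4:132812430-132812484.
Esrrg low stretch: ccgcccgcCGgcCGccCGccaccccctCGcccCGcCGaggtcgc
Esrrg high stretch: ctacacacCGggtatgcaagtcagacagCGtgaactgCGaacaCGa
Sytl1 low stretch: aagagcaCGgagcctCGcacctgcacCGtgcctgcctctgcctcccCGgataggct
Sytl1 high stretch: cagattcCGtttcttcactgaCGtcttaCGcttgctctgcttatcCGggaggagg
The 6 rows of the Esrrg low stretch averaged 2.39%, and the 4 rows of its high stretch, 1 of them at 67.2%, averaged 86.4%. In Sytl1, a gene of vesicle transport, the stretches averaged 16.3% and 90.7%.

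Intermediate dense bins were rare. Of all dense bins 8984 had means under 10%, 325 had means over 90%, and the bands of 40% to 50% and 50% to 60% held 74 and 56 bins. Within the 190 regions the SD of row means ranged from 1.25 to 44.4 percentage points with a median of 15.5. Its median was 10.7 in uniform, 18.9 in graded and 34.2 in mixed regions, an order that the class rule fixes. The regions nearest the limits of the range were Erg at 35.2% and Sh3pxd2a at 35.4% on the inside, with bins near Snx20 at 34.1% and Eltd1 at 34.4% just outside. At the upper limit 3110070M22Rik and Eif3b lay inside, both at 64.9%, and bins near Gm15985 at 65.1% and Zfp316 at 65.2% lay outside.

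**Figure D1:**
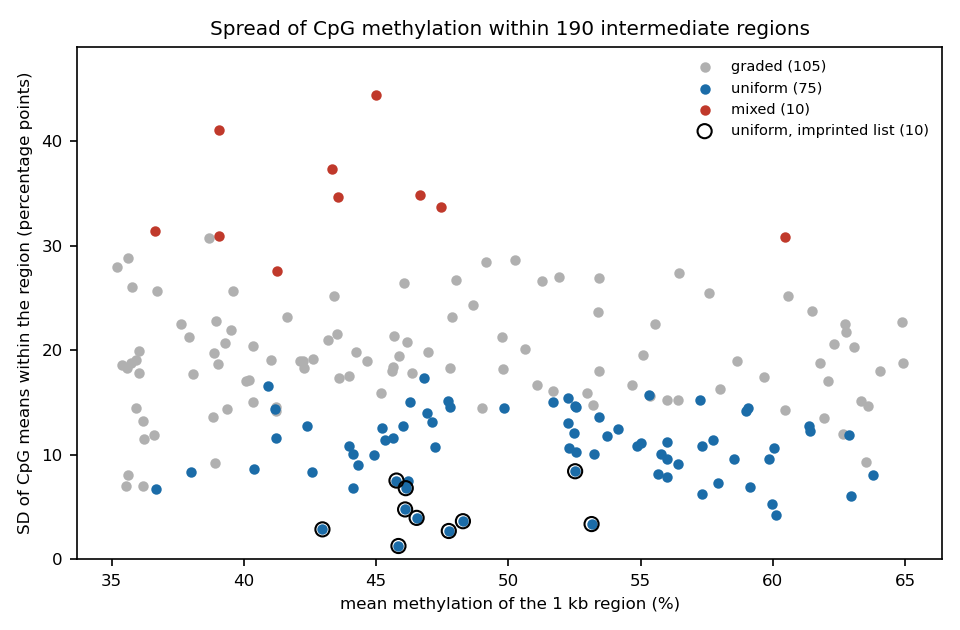
Each point is 1 of the 190 regions, with its mean methylation in percent on the horizontal axis and the SD of its row means in percentage points on the vertical axis, coloured by class. The 10 circled uniform regions at imprinted loci lie between 1.25 and 8.41 percentage points, and the mixed regions lie from 27.6 upward.

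A group of 10 uniform regions lay at loci of a list of 68 imprinted genes. The list had 36 dense bins at 29 of its genes, of which 10 were in range, 22 had means under 10%, 4 lay from 10% to 35% and none was over 65%. Thus 27.8% of the dense bins at listed loci were in range, against 1.76% of all other dense bins. All 10 in range were uniform. The 4 bins just below were 2 at Cdkn1c with 14.2% and 24.9%, one at Slc22a3 with 16.7% and one at Magel2 with 33.6%. Bins under 10% at listed loci included the promoters of Igf2, Ascl2, Kcnq1, Blcap and Copg2.

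The most even region of all was the promoter shared by Peg10, a gene derived from a retrotransposon and needed in the placenta, and Sgce, a sarcoglycan gene (chr6:4697001-4698000). Its 12 rows had means of 44.4% to 48.3% with an SD of 1.25 percentage points. By mouse it lay at 22.5%, 48.8% and 63.9% (lowest, median and highest) in LF_LF, at 32.1%, 43.9% and 62.8% in LF_HF, at 29.7%, 46.3% and 54.4% in HF_LF, and at 32.2%, 46.5% and 57.3% in HF_HF. All 4 groups overlapped widely.

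Plagl1 encodes a zinc finger transcription factor that restrains cell growth, and its promoter region (chr10:12810001-12811000) held the most rows of the imprinted set. Its 37 rows ranged from 36.6% to 54.7% with a mean of 46.1%. Mice lay at 34.4%, 46.3% and 55.4% in LF_LF, at 34.6%, 41.9% and 49.4% in LF_HF, at 42.4%, 49.2% and 61.4% in HF_LF, and at 38.8%, 47.3% and 50.8% in HF_HF. The lowest HF_LF mouse lay above the lowest mouse of every other group, and all groups overlapped.

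Mcts2 is a retrogene within an intron of H13, read from the paternal copy. Its region (chr2:152512001-152513000) had 21 rows of 47.4% to 59.0% and the highest mean of the imprinted set, 53.1%. Trappc9 encodes a subunit of a trafficking complex and hosts the imprinted noncoding RNA Peg13 in an intron. Its region (chr15:72640001-72641000) had the lowest mean, 43.0%, over 10 rows of 40.4% to 49.3%. Mice lay at 26.3%, 40.2% and 50.7% in LF_LF, 29.8%, 41.6% and 62.2% in LF_HF, 24.3%, 40.7% and 50.8% in HF_LF, and 38.9%, 50.7% and 59.0% in HF_HF, so that the HF_HF mice sat higher but within the range of LF_HF.

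Gnas, which encodes the stimulatory G protein alpha subunit and its imprinted variants, had 3 regions. Neighbouring bins over coding exons (chr2:174124001-174126000) averaged 47.7% and 46.5%, and a promoter bin (chr2:174153001-174154000) averaged 48.3%. A further Gnas promoter bin (chr2:174155001-174156000) averaged 1.07% over 29 rows, so that intermediate and unmethylated promoter sequence of the same gene lay within a few kilobases.

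The remaining imprinted regions spread more from row to row. The bin named Airn overlaps the promoter of Igf2r, a receptor gene that clears the growth factor IGF2, and lies inside the noncoding RNA Airn transcribed from the opposite strand. It had 13 rows of 31.3% to 53.8% (chr17:12962001-12963000). A Grb10 promoter bin (chr11:11926001-11927000), belonging to an adaptor protein that dampens insulin signalling, had 16 rows of 43.9% to 77.5%, whereas another Grb10 promoter bin (chr11:11937001-11938000) averaged 2.24%. The bin at Commd1, which hosts the imprinted retrogene Zrsr1 (chr11:22872001-22873000), had 10 rows of 27.0% to 51.2%. Row spread thus differed within the set, from 1.25 percentage points in Peg10 to 8.41 in Grb10.

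**Figure D2:**
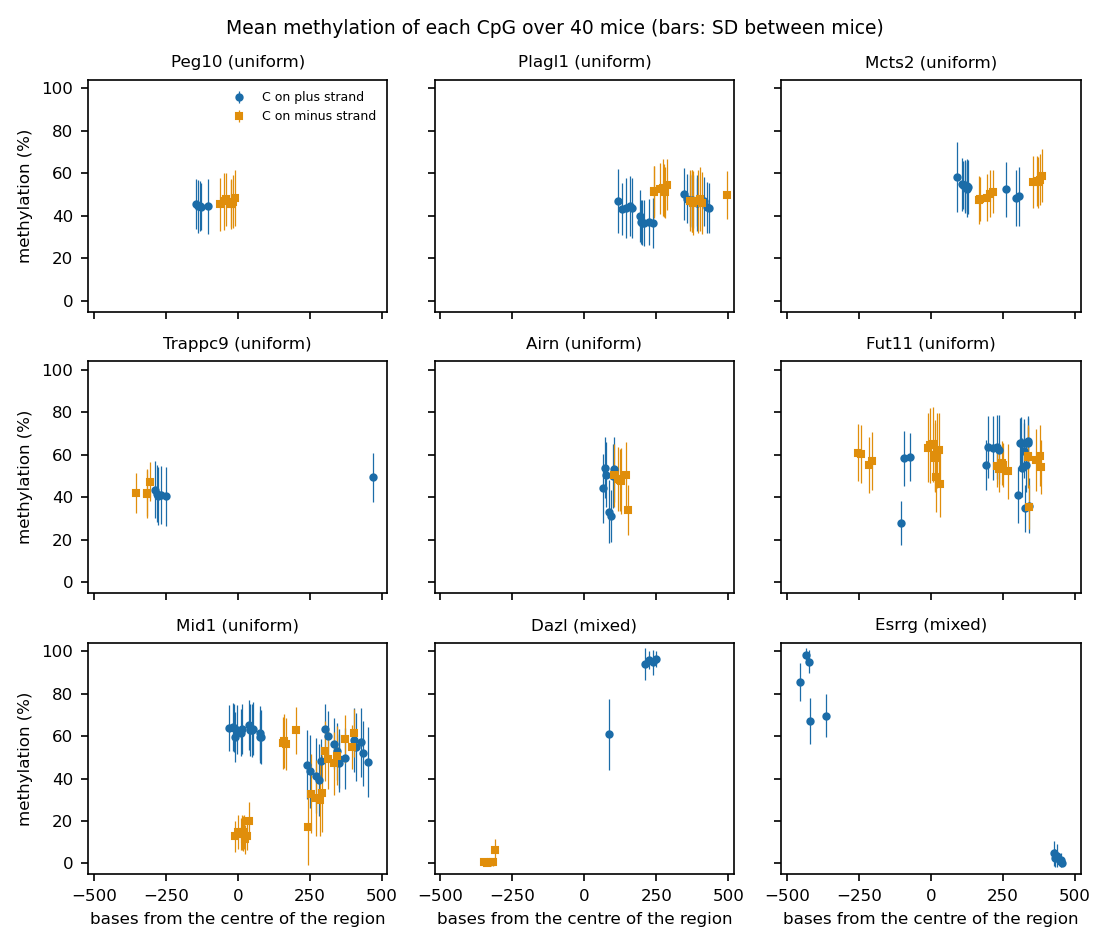
Row means over 40 mice (percent, bars are the SD between mice) against distance in bases from the region's centre for 6 uniform regions, Mid1 and 2 mixed regions, with circles for cytosines of the plus strand and squares for the minus strand. In Peg10 all rows lie from 44.4% to 48.3%, in Mid1 plus-strand rows at 62.4% and minus-strand rows at 14.4% share a stretch near the centre, and Dazl and Esrrg hold separate low and high groups.

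Of the 65 uniform regions outside the imprinted list the SD of row means had a median of 11.2 percentage points, against 3.78 in the 10 listed ones, and a minimum of 4.24 in an intergenic bin near Gadd45g, named here after its value was seen. The promoter of Fut11, a fucosyltransferase gene, had 43 rows from 27.9% to 66.4% with a mean of 56.4%. Exonic bins of Gm1614 and Fbrsl1 had 36 rows with a mean of 46.9% and 23 rows with a mean of 56.0%. Promoters of Boll, a germ cell RNA-binding protein, of Hspb9, a testis heat shock protein, and of Pnma1 averaged 44.9%, 41.2% and 51.7%. A promoter bin of the transcriptional coregulator gene Zmiz1 had 44.0% over 21 rows, and one of the kinase gene Wnk4 had 52.5% over 19 rows. An intergenic bin near Cd209c had 24 rows and a mean of 38.0%.

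The Mid1 bin (chrX:166435001-166436000) lay in an intron of this ubiquitin ligase gene, which in this strain spans the border of the pseudoautosomal region, the part shared by the X and Y chromosomes. It had 56 rows, 45 of them from 30% to 70%, and a mean of 46.8%. It was read more deeply than all members but 1, at 86.0 reads per row and mouse against a median of 22.7 over the 190 regions. Its strands did not match. Across the first stretch of 14 plus-strand and 9 minus-strand rows, plus-strand means lay from 59.4% to 65.1% and minus-strand means from 11.3% to 20.2%, with medians of 60.5 reads or more per mouse on either strand. Further right the strands averaged 51.0% and 47.0%, but paired cytosines still differed. Of the 16 Mid1 CpGs with both cytosines listed, 5 differed by more than 30 percentage points and 5 were within 10. In all other members with both cytosines of a CpG listed, 242 pairs in 127 regions, the strands differed by a median of 2.22 percentage points, 231 pairs were within 10 and 1 differed by more than 30. The mean of the Mid1 region is therefore a mean over unlike rows, and the label uniform does not describe its first stretch. Whether reads were placed correctly there could not be checked from counts, which limits what the level of this bin means.

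In the mixed class the low and high rows were separated along the bin in 9 of 10 regions. Dazl encodes an RNA-binding protein of germ cells, and its promoter bin (chr17:50432001-50433000) had 5 rows averaging 1.74% and, 520 bases away, 4 rows averaging 95.2%, with 1 row between. In Esrrg, an orphan nuclear receptor gene, 6 low rows at 2.39% and 3 high rows at 92.8% were 853 bases apart in an intron (the stretches printed above). Pear1, a platelet receptor gene, had 6 low rows at 3.30% and 4 high rows at 89.5% with a gap of 342 bases. In Exoc8, a subunit of the exocyst, 7 rows averaged 6.01% and 2 averaged 88.2%. The gap was shortest in the intergenic bin near Wfdc11, at 61 bases, and longest in the Mfhas1 bin, at 885. In Tmem59l the low and high rows interleaved. Rows from 20% to 80% made up from 1 of 10 in Dazl to 6 of 13 in Lrtm2.

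Graded regions lay between these forms. The 4 with most rows were the promoter of 3110070M22Rik, with 64 rows from 1.63% to 87.0%, and exonic bins of the junctophilin gene Jph4, of Ssbp4 and of the progranulin gene Grn, with 36, 31 and 28 rows. In 17 of 105 graded regions row means were ordered along the bin (absolute Spearman rho above 0.8 between position and level, over the rows of 1 bin, which share reads), as in 6 of 10 mixed and 3 of 75 uniform regions. Bins next door with at least 3 rows showed the same contrast as a description. Around uniform regions 13 of 27 such neighbours were themselves from 35% to 65% and 6 were under 20%. Around graded regions 6 of 42 were in that range and 21 were under 20%. Around all dense bins 184 of 6315 were in that range and 5684 were under 20%. Members that lie side by side, such as the neighbouring Gnas bins, count as each other's neighbour.

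In CpG ratio and in promoter and coding exon shares the regions lay between unmethylated and methylated dense bins. The ratio of observed to expected CpGs over the 1 kb had a median of 0.477 in the 190 regions, 0.748 in dense bins under 10% and 0.423 in dense bins over 90%. In the 10 imprinted regions it was 0.840 and in every one of them above 0.6, against 17 of the other 65 uniform regions. A bin overlapping a promoter (1000 bases before to 500 after a start) made up 84.2% of the low dense bins, 13.5% of the high ones and 32.6% of the regions. Coding exons held 31.6% of the regions, against 4.72% of low and 62.8% of high dense bins. The share between genes was 23.2%, above both the 5.74% of low and the 11.7% of high dense bins. TGCCGC on either strand was found in 9 of 10 imprinted regions, 27 of the other 65 uniform regions, 35.2% of graded regions, 6 of 10 mixed regions, 53.7% of low and 30.3% of high dense bins, and 51.5% of all dense bins. At least 2 copies were found in 7 of the 10 imprinted regions and in 19.8% of all dense bins. These letters are a description of the window and show no binding. Copies elsewhere in the genome, of at least 500 bases at 85% identity, were found for 5 of the 190 regions, among them the deepest, an intergenic bin of chromosome 12 near Gm10479 with 93.3 reads per row, and the Gm13146 promoter with 41.5. Reads of such copies may be shared, so their levels are uncertain.

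Of the other lists, 3 regions lay at or near their genes. With 190 members among 10235 dense bins, counts this small say nothing of a list. None of the 190 was among the 8 dense bins at hepatocyte genes or the 50 at Hox genes, nor among the 2 at stellate and 2 at cholangiocyte genes, and blood cell genes had no dense bin. One was nearest to an endothelial gene, Erg, of 5 dense bins, one at a protocadherin gene, Pcdhgc5, of 8, and one at a germline gene, Dazl, the single dense bin of that list.

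Within groups, the SD between mice had a median of 5.62 percentage points over the 190 regions. Its median was 7.75 in the 10 imprinted regions, 6.60 in the other uniform, 5.32 in the graded and 3.63 in the mixed regions. These SDs hold read sampling as well as differences between mice. The parts could not be separated, since neighbouring rows share reads and the deposited counts do not say which. The SD was largest in Airn, at 11.0, and smallest in Dazl, a mixed region, at 1.89. Methylation of Dazl stayed between 40.4% and 48.3% in all 40 mice, while Airn ranged from 18.6% to 74.3% over 38 mice. No imprinted region had all its mice between 35% and 65%. In the Gnas bin starting at 174124001 the only mouse outside was in LF_HF, at 65.15%. In Plagl1 38 of 40 mice were in that range and in Airn 29 of 38.

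Averaged over the 10 imprinted regions, mice ranged from 40.5% to 53.6%. The group means of this average were 48.2% ± 2.82 in LF_LF, 47.4% ± 3.44 in LF_HF, 46.8% ± 2.27 in HF_LF and 47.4% ± 2.34 in HF_HF (SD, n = 10 each), and group means differed by less than the SD in LF_LF and in every other group. For all 75 uniform regions the means were 51.3% ± 1.01, 51.6% ± 1.35, 51.0% ± 0.941 and 50.7% ± 1.19 in the same order. For the graded regions they were 47.7% ± 0.782, 47.7% ± 1.02, 47.6% ± 0.618 and 46.7% ± 1.31, lowest in HF_HF with overlapping ranges. For the mixed regions they were 44.0% ± 0.878, 44.8% ± 1.02, 44.2% ± 0.860 and 44.2% ± 1.70. None of these class means was tested.

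**Figure D3:**
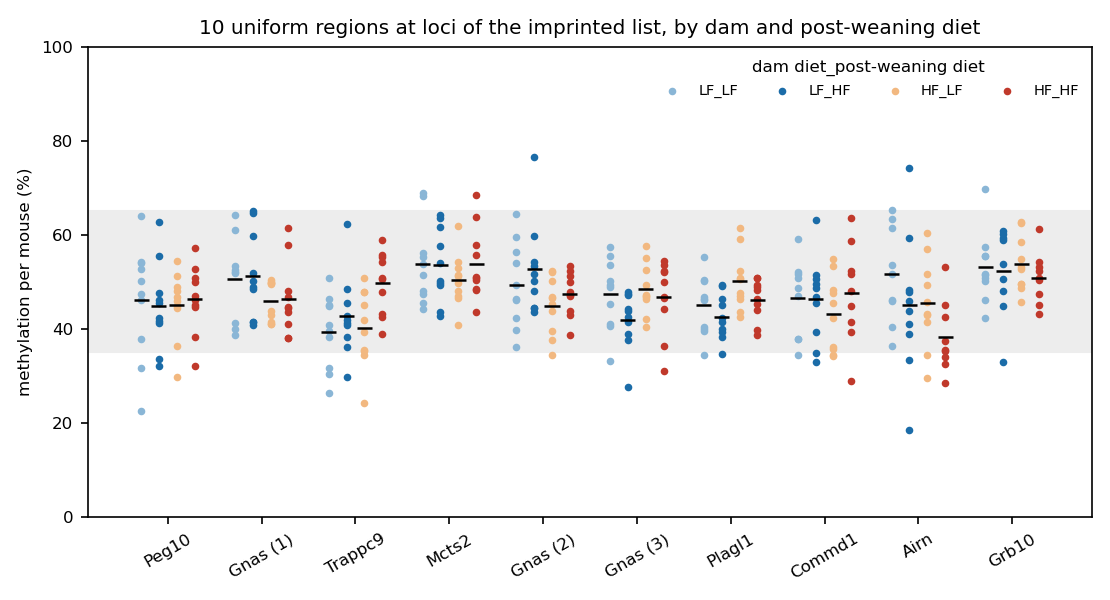
Methylation in percent for each mouse (points) and group mean (bars) in the 10 uniform regions at imprinted loci, coloured by dam and post-weaning diet, with the range of 35% to 65% shaded. Gnas (1), (2) and (3) start at chr2 positions 174124001, 174153001 and 174125001, and the groups overlap in every region.

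To ask whether the diet of the dam or of the mouse moved these regions, the value of a bin in a mouse was the bin mean plus the mean deviation of its covered rows, and bins with at least 5 covered rows in all 40 mice were tested. This left 4668 dense bins, of which 70 were members (29 uniform, 6 of them imprinted, 39 graded and 2 mixed). Pairs of groups were compared with Student's t-test and the diets over all mice with a linear model, each with Benjamini-Hochberg adjustment over the 4668 bins. In none of 7 comparisons did a member pass a false discovery rate (FDR) of 5%. Of all tested bins 0% passed in 6 comparisons and 0.0214%, a single bin that is not a member, in the comparison of post-weaning diet over all mice.

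Counts of members with an unadjusted p below 0.05 ranged from 3 to 9 of 70. For the diet of the dam, 5 of 70 members passed in mice fed HF (all lower after HF dams) against 5.31% of all tested bins, 5 of 70 in mice fed LF against 5.51% (1 by the quasi-binomial model, 1 by methylated over all reads and 0 with total reads as covariate), and 4 of 70 over all mice against 5.08%. For the post-weaning diet, 9 of 70 passed in mice of LF dams against 5.25% of bins, 5 of 70 in mice of HF dams against 5.08%, and 9 of 70 over all mice against 5.42%. For the interaction 3 of 70 passed against 4.8%. The 9 of 70 are 12.9% of members, above the share of all tested bins. In mice of LF dams the count was 10 by the exact Wilcoxon test, 11 by limma, and 3 both by the quasi-binomial model and when a bin was taken as its methylated over all reads. Over all mice it was 11 by limma, 10 with total reads as covariate and 8 by methylated over all reads. Members differed between paired groups by -6.98 to 9.55 percentage points, and the 95% interval of a difference reached a median of 4.89 to 5.28 points to either side. Intervals differed between regions, and a difference inside its own interval's reach could not be told from 0.

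The rankings that follow are among these 70 members only. The smallest p was found near Erg, which encodes a transcription factor of endothelial cells. This graded bin (chr16:95563001-95564000), 16785 bases from the gene, had rows from 2.49% to 71.1%. Mice lay at 33.3%, 38.3% and 42.1% in LF_LF, 27.9%, 33.1% and 39.2% in LF_HF, 32.4%, 36.3% and 39.1% in HF_LF, and 28.6%, 33.3% and 37.6% in HF_HF. Medians were lower in both groups fed HF, and ranges overlapped. Over all mice the post-weaning HF diet went with a difference of -4.02 percentage points (95% interval -6.08 to -1.96, unadjusted p = 0.000337, FDR 0.427 by the linear model), which did not pass. In that comparison 3110070M22Rik had a difference of -4.46 (unadjusted p = 0.00595 by the linear model). Hk1, the hexokinase 1 gene, had the largest fall among the 70, -4.80 (-8.67 to -0.935), and the Trappc9 region the largest rise, 6.44 (1.40 to 11.5).

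Trappc9 also had the largest difference of any pair of groups among the 70, 9.55 percentage points higher in HF_HF than in HF_LF (2.62 to 16.5, p = 0.00966, FDR 0.910 by Student's t-test, n = 10 each). The quasi-binomial model gave 6.07. In mice of LF dams the same diet gave a mean of 42.7% ± 8.55 against 39.4% ± 7.86 (SD, n = 10 each). Plagl1 had the largest rise with HF dams over all mice, 4.39 (0.914 to 7.87, unadjusted p = 0.0147, FDR 0.957 by the linear model). It rested on 50.1% ± 6.19 against 45.0% ± 6.33 in mice fed LF and 46.2% ± 4.30 against 42.6% ± 4.85 in mice fed HF (SD, n = 10 each). Of the 6 imprinted regions tested, 1 had an unadjusted p below 0.05 in this comparison, 1 in the post-weaning comparison over all mice and 1 in mice of HF dams. In the same order, 5.08%, 5.42% and 5.08% of all tested bins did. In every other comparison the count of imprinted regions was 0. Airn was not tested for want of covered rows. Its group means were 51.6% in LF_LF, 45.1% in LF_HF, 45.6% in HF_LF and 38.2% in HF_HF over 38 mice, and in a fit that allows missing mice, chosen after seeing the data, the FDR of its post-weaning difference over all mice was 0.870.

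Other regions held the extreme value of a comparison among the 70 tested. Mn1, a transcriptional regulator gene, was lower after HF dams in mice fed HF, with a difference of -6.98 percentage points (-11.4 to -2.53, p = 0.00406, FDR 0.859 by Student's t-test, n = 10 each), and had the smallest p for the dam's diet over all mice, 0.00433 for -5.08, or -8.02 by methylated over all reads. Rin1, a Ras effector gene, had the smallest p in mice fed HF, 0.00206, for a difference of -3.89, and the smallest p of the interaction, 0.0196 for -4.03. The largest fall of the interaction was -7.81 in Thbs1, the thrombospondin 1 gene, which became -2.95 with CpGs covered in at least 36 mice. In mice fed LF the Gm13146 promoter had the smallest p, 0.0230 for -5.09, and Pi16 the largest fall, -5.19. Pi16 became -1.83 by methylated over all reads and -2.80 in the quasi-binomial model, so that its place as the largest fall depends on the value used. Of mice of LF dams, those fed HF differed by -6.90 points in Hk1, with medians of 52.7% against 61.8%, and were 6.93 points higher in the bin near Cd209c. Wnk4 had the largest fall in mice of HF dams, -5.01, at 49.5% in HF_HF against 54.5% in HF_LF. None of these passed the FDR of 5%. In the fit that allows missing mice, larger rises or falls than those of the 70 were found in other members, named after their values were seen. The intergenic bin nearest Pbx3 (chr2:34003001-34004000) had an interaction of -15.1 (unadjusted p = 0.000791, FDR 0.958 by the linear model), and an exonic Dusp8 bin (chr7:149268001-149269000) was 12.8 points higher after HF dams in mice fed LF (p = 0.00127, FDR 0.878 by Student's t-test). The intergenic bin near E130006D01Rik (chr5:112373001-112374000) differed by -8.03 in mice of HF dams, and an exonic Gas2l1 bin (chr11:4964001-4965000) by -6.99 for the post-weaning diet over all mice. For the dam's diet, falls beyond those of Mn1 were found too. The bin nearest Pbx3 differed by -9.98 in mice fed HF, and the bin starting at chr14:63859001 by -9.75 over all mice.

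**Figure D4:**
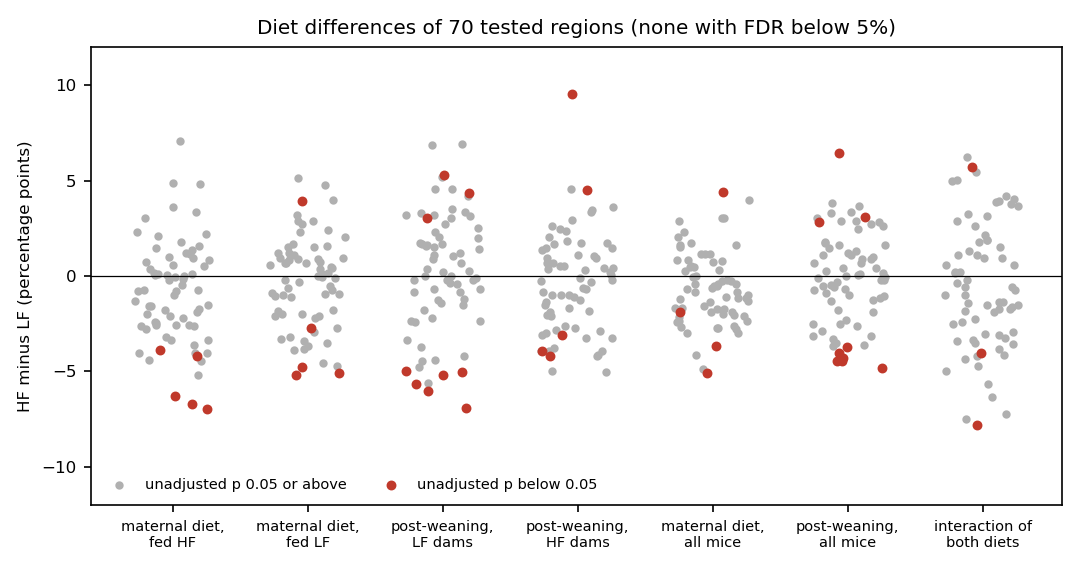
Difference in methylation (HF minus LF diet, percentage points, for the interaction the difference of differences) for each of the 70 tested members in 7 comparisons, with red points for unadjusted p below 0.05. Differences scatter on both sides of 0, from -7.81 to 9.55.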

How the data were processed

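Liver DNA of 40 mice was digested with MspI, size selected, bisulfite converted and sequenced. The submitters' processing notes name Bismark and mm9. The authors deposited, per cytosine and mouse, counts of methylated and total reads, where entries under 10 reads are missing. The deposited file of fractions equals the ratio of these counts. Depth per mouse was 2969907 to 23345592 reads at listed CpGs.

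Bins were annotated with GENCODE M1 on mm9, and copies were sought with minimap2 2.31-r1302. Values and tests used Python 3.11.15, numpy 2.4.6 and scipy 1.17.1, with Student's t-test for pairs of groups and a linear model for both diets, after checks on simulated data. Alternatives included limma 3.58.1, rank and quasi-binomial tests, other coverage minimums and single CpGs. Named regions were the 12 uniform ones with most rows and those at imprinted loci, the 8 mixed and 4 graded ones with most rows, the extremes of each comparison, the 3 largest and 3 smallest ratios of the SD between mice to that expected if all reads of a bin were independent (used for naming only, since rows share reads), and the 2 bins on each side of either end of the level range. The members and lists were chosen with earlier results of these data known. A mouse has a value in a named region with at least 3 covered rows. Libraries of a group were compared in 180 pairs, and their squared differences were 1.15 to 1.81 times those expected from sampling, so none was taken as a repeat of another.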

Additional observations from a re-analysis of the deposited data

Results flagged for a closer look

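In named regions, groups of 4 to 10 mice were searched for a mouse far from the rest, by the gap to its neighbour over the range of the group (Dixon's 95% limit). This found 10 cases among 168 groups, where about 1 in 20 groups is found by chance. In LF_LF, a mouse of Gm1614 had 35.87% with the next at 45.82%. In LF_HF, the lowest value came from a different mouse in each region. It was 33.76% in Zmiz1 (replicate 5, next 40.82%) and 37.1% in Ssbp4 (replicate 1, next 44.08%). In the Gnas bin starting at 174125001 it was 27.63% (replicate 3, next 37.71%). The highest LF_HF value was 76.64% in the Gnas bin starting at 174153001 (replicate 10, next 59.86%) and 51.16% in Lrtm2 (replicate 7, next 44.43%). In HF_LF, the highest mouse had 48.16% in Tmem59l (next 41.39%). The other cases were the same mouse, HF_HF replicate 9, which has the fewest reads of the series (2969907). It had 50.07% in B3gnt7 (next 41.42%), 53.61% in Ssbp4 (next 46.64%) and 32.85% in Eif3b (next 56.86%), the last from 54 reads. The case in Gnas with 76.64% came from 96 reads in LF_HF replicate 10. The part of depth in these values was not tested.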

How the results depend on the processing

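No member passed an FDR of 5% in any of the 7 comparisons under any alternative run for it: the exact Wilcoxon test and the quasi-binomial model (for the 4 pairs of groups), limma, summed reads, a minimum of 20 reads, CpGs covered in at least 36 mice, total reads as covariate, adjustment over bins with 5 or more rows, and single CpGs. The minimum of 20 reads left 4 members among 23 bins. Calls were as rare over all features. At most 1 bin passed in any comparison, and at most 6 of 262317 single CpGs, all for the post-weaning diet. Alternatives chosen after seeing the data, with at least 3 covered rows in every mouse (116 members) or 5 in at least 8 mice of each group (187 members), also called 0 members, with 5 to 13 and 9 to 18 members below an unadjusted p of 0.05. The highest counts were for the post-weaning diet over all mice, 11.2% of members against 5.01% of all bins and 9.63% against 5.55%. Over the alternatives with the same 70 members, counts below an unadjusted p of 0.05 were 4 to 7 for the dam's diet in mice fed HF, 0 to 5 in mice fed LF and 4 to 7 over all mice, 2 to 5 for the post-weaning diet in mice of HF dams, 3 to 11 in mice of LF dams and 8 to 11 over all mice, and 1 to 3 for the interaction. Of all tested bins, 4.11% to 6.15% lay below that p in these settings. The 8 to 11 over all mice are 11.4% to 15.7% of members. The 19 differences that were the largest rise, largest fall or smallest p of a comparison among the 70 members kept their sign under every alternative that gave a value, but not their size, as given beside Pi16, Thbs1, Mn1 and Trappc9. The interaction of Trappc9 was 6.23 and became 9.73 with CpGs covered in at least 36 mice. Summed reads per row and bins shifted by 500 bases gave 190 and 184 members. The number was 83 (38 uniform, 2 mixed) with CpGs covered in at least 36 mice, 52 (16 and 2) with 15 rows, and 1185 (525 and 30) with 5 rows. Mixed regions numbered 6 in a range of 40% to 60% and 16 in one of 30% to 70%. An SD of row means of at most 8 percentage points, chosen after seeing the data, gave 21 uniform regions. A higher minimum of rows or a narrower range leaves fewer bins by construction. No paired analysis was possible because the labels give the groups no shared replicate numbers and name no dam or cage. Depth limits the tests: 70 of the 190 members had 5 covered rows in every mouse.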
